A study of Mus musculus with 56 samples.

Results

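The genes of glycolysis and of pyruvate metabolism were followed across 7 sorted cell populations of mouse back skin. The set was chosen by gene symbol: 34 named genes, all of them present in the table of 24062 genes, from the glucose transporters that bring sugar into a cell to the kinases that hold pyruvate back from the mitochondria. Of the 34, 32 reached 1 RPKM (reads scaled to gene length and to the library total) in at least 2 libraries and were tested. Eno1 and Fbp2 did not. RNA was sequenced from cells sorted by fluorescence from the dorsal skin of CD1 mice at postnatal day 22, and every population came from the line K14-H2BGFP;Crabp1-GFP;Lef1-RFP, which carries green histone under the keratin 14 promoter, green protein at Crabp1 and red protein at Lef1. The labels name no treatment other than the sort. DP is the dermal papilla, the mesenchymal cluster that signals to the follicle, and DF the dermal fibroblasts. BuSC and HGSC are the stem cells of the bulge and of the hair germ, Foll the cells labelled as upper hair follicle, Epi the epidermis, and Neg the mixed fraction without label. Each population was sorted from 4 sections of back skin, zones 1 to 4, in 2 biological replicates, so that 8 libraries stand for a population and 56 for the whole. The batch recorded in the labels is the zone itself, so that these cannot be told apart, and the labels do not say where on the back a zone lies or whether equal replicate numbers mean shared animals.

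Glycolysis splits glucose into pyruvate in the cytosol. Pyruvate is then either reduced to lactate by lactate dehydrogenase and exported, or carried into the mitochondrion and oxidised by the pyruvate dehydrogenase complex, which the pyruvate dehydrogenase kinases switch off. Most steps have several isoenzymes from separate genes, and tissues differ in which they use. In skin, hair follicle stem cells are known for their use of lactate dehydrogenase at the start of a new hair cycle.

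The 5 promoter stretches below belong to members whose levels set populations apart (Slc2a1, Hk2, Pfkfb3 and Ldhb) and to Ldha, the partner of Ldhb. Each is the 250 bases before the gene's start, from RefSeq on build GRCm38.p6, read 5′ to 3′ on the gene's strand and taken at the most upstream start where a gene has several. Capitals mark ACGTG on either strand, 1 form of the core of the element that hypoxia-inducible factors bind. Another form, GCGTG, was not counted, and the Ldhb stretch holds it. The palindrome CACGTG, which other factors also bind, holds ACGTG on both strands and appears as 1 run of capitals.
Slc2a1, chr4:119108495-119108744, plus strand: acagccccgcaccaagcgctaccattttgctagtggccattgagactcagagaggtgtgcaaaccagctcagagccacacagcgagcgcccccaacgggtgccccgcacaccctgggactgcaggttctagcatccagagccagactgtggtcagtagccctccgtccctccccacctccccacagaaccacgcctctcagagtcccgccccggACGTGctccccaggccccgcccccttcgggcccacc
Hk2, chr6:82774455-82774704, minus strand: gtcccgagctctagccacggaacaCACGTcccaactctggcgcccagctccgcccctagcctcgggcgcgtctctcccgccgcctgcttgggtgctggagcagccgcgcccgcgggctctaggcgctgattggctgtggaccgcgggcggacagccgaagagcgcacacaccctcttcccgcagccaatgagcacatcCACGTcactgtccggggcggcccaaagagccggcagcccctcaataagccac
Pfkfb3, chr2:11553930-11554179, minus strand: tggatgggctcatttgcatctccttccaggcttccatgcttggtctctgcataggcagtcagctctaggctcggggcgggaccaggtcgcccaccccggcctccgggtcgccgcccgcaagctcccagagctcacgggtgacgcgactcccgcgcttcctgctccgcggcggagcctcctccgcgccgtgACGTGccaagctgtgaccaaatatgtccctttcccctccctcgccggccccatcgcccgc
Ldha, chr7:46845554-46845803, plus strand: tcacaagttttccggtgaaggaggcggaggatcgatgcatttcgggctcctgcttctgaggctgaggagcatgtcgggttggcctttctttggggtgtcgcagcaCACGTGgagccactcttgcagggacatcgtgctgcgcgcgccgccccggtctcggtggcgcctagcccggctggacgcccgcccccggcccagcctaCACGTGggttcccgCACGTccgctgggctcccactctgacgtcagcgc
Ldhb, chr6:142507958-142508207, minus strand: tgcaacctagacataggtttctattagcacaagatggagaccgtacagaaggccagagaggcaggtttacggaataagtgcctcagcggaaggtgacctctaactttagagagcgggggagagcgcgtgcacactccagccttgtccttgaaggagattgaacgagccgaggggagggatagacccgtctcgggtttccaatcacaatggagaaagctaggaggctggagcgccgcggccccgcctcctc
The Ldha stretch held 5 matches, counting both strands, of which 4 lay in a pair of CACGTG palindromes. The Ldhb stretch held 0, Hk2 held 2, and Slc2a1 and Pfkfb3 held 1 each. Over all starts, 16 of the 33 members with a promoter entry held ACGTG at least once, in 20 of their 50 stretches. Among all 27025 genes 18.5% held it, in 16.6% of 32851 stretches. Slc2a3 had no entry. A match is a string of letters and no measure of binding.

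Library totals ran from 3.24 M to 87.8 M reads, with a median of 14.7 M, and the ranges of all 7 populations overlapped. Defining markers mostly followed the labels. Keratin 14 (Krt14) had a mean of 415 to 1769.8 RPKM in the 4 keratinocyte populations and at most 4.61 in DP and DF. Sox18 reached 111 RPKM in DP, Col1a1 21436 in DF, Shh 43.7 in HGSC and Krt1 995 in Epi. Some markers were not limited to the labelled population: Cd34, a bulge marker, had a mean of 62.7 RPKM in BuSC, 110 in Neg and 201 in DF, and Krt1 had 512 in Foll. The summed bulge list had a median of 2515 in Epi and 2507 in BuSC, and the summed hair germ list was 295 to 374 in DP and 84.3 to 156 in HGSC. In DP only 1 of the 3 hair germ markers had a mean of at least 1 RPKM, and Shh stood at 0.0655. Lef1 is on both the hair germ and the dermal papilla list. Of the 56 libraries, 55 correlated better with their own population than with any other. The exception was Foll zone 1 replicate 2, with a mean correlation of 0.907 with HGSC and 0.890 with Foll. BuSC zone 4 replicate 1 had the highest summed fibroblast markers of its population, 8375 RPKM against 1090 to 2562 in the other BuSC libraries. All 41 calls on members described here held without both libraries. In bulk samples, fewer cells of a type and less RNA per cell cannot be told apart.

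The scale of the deposited values bears on every comparison with DF, because libraries of that population stand apart from the rest in their overall level. Library factors from the median of gene ratios were 0.524 to 0.589 in DF against 0.919 to 1.39 in the other populations. On the deposited scale the median of all tested genes was 0.47 higher in DP than in DF on log2(RPKM + 1). It was 0.08 after quantile scaling and 0.00 after median-of-ratios scaling. Values are therefore given on the deposited scale, and each difference between DP and DF or between mesenchyme and keratinocytes that was called is followed by its value after median-of-ratios scaling.

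**Figure D1:**
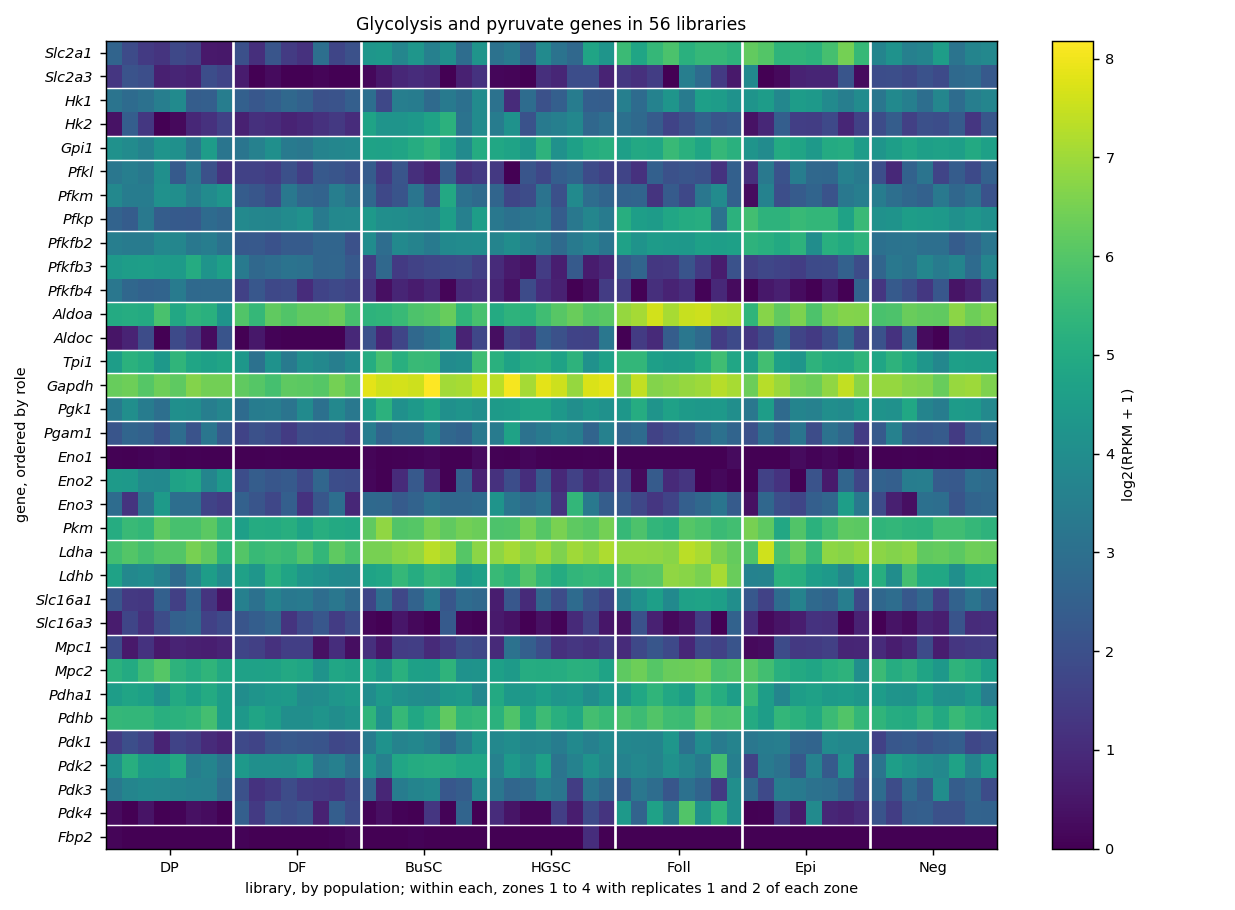
Level of each of the 34 genes (rows, in order of their role in the pathway) in each of the 56 libraries (columns, 8 per population with zones 1 to 4 from left to right), as log2(RPKM + 1). Gapdh, Ldha, Aldoa and Pkm are bright in every population, Slc2a1 is bright in Foll and Epi, Hk2 in BuSC and HGSC, and Eno1 and Fbp2 are dark throughout.

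Levels per length spanned a wide range among the members. Gapdh, which oxidises glyceraldehyde phosphate, had a mean level of 68.8 RPKM in DF and 193 in BuSC. Ldha ran from 53.8 in DF to 119 in HGSC, Aldoa from 34.1 in DP to 156 in Foll and Pkm from 30.0 in DF to 79.5 in BuSC. Among the 32 tested members, the highest mean lay in Foll for 8, in BuSC for 7, in DP for 6, in HGSC for 5, in Epi for 4, and in DF and Neg for 1 each. The lowest mean lay in DF for 16 and in DP for 8. These ranks hold for the deposited scale, on which DF libraries had the lowest factors (0.524 to 0.589). Gapdh and Ldha, lowest in DF here, differed between DP and DF by -0.65 and -0.71 after median-of-ratios scaling. Ranks were not recounted after scaling or for all genes.

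The glucose transporter Slc2a1 was higher in keratinocytes than in mesenchyme. It encodes GLUT1, the basal glucose transporter of many cell types. In Epi it had a lowest, median and highest value of 37.5, 48.5 and 87.7 RPKM, and in Foll of 27.3, 42.3 and 57.3. In BuSC the same values were 6.67, 16.9 and 19.5, and in HGSC 4.59, 8.49 and 26.3. In DP they were 0.437, 1.86 and 5.21, and in DF 1.13, 2.60 and 6.87. Every Epi and Foll library lay above every library of the stem cell pools, and the stem cell pools overlapped DP and DF only at the top library of DF and, for HGSC, of DP. The difference of mesenchyme from keratinocytes was -3.0 ± 0.15 (SE) on the log2 scale, the most negative of the 32 members, with an adjusted p of 1.26e-18 (limma), and -2.50 after median-of-ratios scaling. The stem cell pools lay below Epi and Foll by a difference of -1.85 ± 0.18 (adjusted p = 1.44e-10, limma). Between DP and DF, Slc2a1 differed by -0.36 (adjusted p = 0.244), and by -1.03 (adjusted p = 0.00178) after median-of-ratios scaling.

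Slc2a3, which encodes the high-affinity transporter GLUT3, was low in most libraries and took another order. In Neg its lowest, median and highest values were 2.42, 3.01 and 6.41 RPKM, and in DP 0.649, 1.81 and 3.28. In DF they were 0, 0.0152 and 0.525, from 97 reads in all 8 libraries, 3 of them at 0. DP and DF did not overlap. The difference of DP from DF was 1.29 ± 0.36 (adjusted p = 0.00334, limma), and 1.19 after median-of-ratios scaling, with DP higher in 4 of 4 zones. As a share of summed Slc2a1 and Slc2a3, Slc2a3 made up 49.0% ± 26.6 in DP, 2.89% ± 5.20 in DF and 23.1% ± 10.9 in Neg (SD, n = 8). A share within a library does not depend on a factor by which the whole library is multiplied. The DP and DF shares did not overlap (exact permutation test within zones, two-sided, p = 0.00154, the smallest that 1296 arrangements allow; adjusted over 21 share tests 0.0162).

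Hexokinase traps glucose in the cell as glucose 6-phosphate, and its 2 isoenzymes were distributed differently. Hk2, the inducible form, had a lowest, median and highest value of 7.71, 18.8 and 36.9 RPKM in BuSC and 3.17, 9.53 and 16.8 in HGSC. Foll ran from 2.15 to 7.15, Neg from 1.45 to 4.36, and the highest library of DP, DF and Epi was 4.48. All 8 BuSC libraries lay above all libraries of Foll, Epi, Neg, DP and DF, and HGSC overlapped Foll, Epi, Neg and DP at its lower end. Both stem cell pools together exceeded Epi and Foll by 1.92 ± 0.19 (adjusted p = 3.36e-10, limma), the most positive difference among the members. Mesenchyme was lower than keratinocytes, with a difference of -1.81 ± 0.16 (adjusted p = 7.32e-12), or -1.40 after median-of-ratios scaling. BuSC exceeded HGSC by 1.08 ± 0.27 (adjusted p = 0.00533), with BuSC higher in 4 of 4 zones and the ranges overlapping. That call ended when HGSC zone 1 replicate 1, HGSC zone 2 replicate 1 or BuSC zone 4 replicate 2 was left out (lowest difference 0.91), and with a pseudocount of 0.1. Fibroblast markers moved with this comparison: 6 of 6 had a mean of at least 1 RPKM in BuSC, their sum was 1090 to 8375 there and 33.6 to 243 in HGSC. Hk2 itself was 0.688 to 1.57 in DF. The part of these markers in the Hk2 difference was not tested.

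Hk1, the constitutive hexokinase, ran the other way. Its lowest, median and highest values were 10.4, 16.1 and 22.1 RPKM in Epi, 6.30, 14.2 and 23.5 in Foll, 2.44, 8.26 and 14.3 in BuSC and 1.03, 4.54 and 9.79 in HGSC. The stem cell pools were lower than Epi and Foll, with a difference of -1.20 ± 0.19 (adjusted p = 5.11e-06, limma), in 4 of 4 zones. Hk1 was thus 30.0% ± 14.1 of the summed hexokinase RPKM in BuSC and 37.3% ± 17.7 in HGSC, against 75.0% ± 13.4 in Foll, 89.8% ± 7.52 in Epi, 85.2% ± 13.6 in DP and 79.4% ± 7.58 in DF (SD, n = 8). The differences of this share between DP and DF (adjusted exact permutation p = 0.482), BuSC and HGSC (0.479) and Epi and Foll (0.0729) did not pass.

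**Figure D2:**
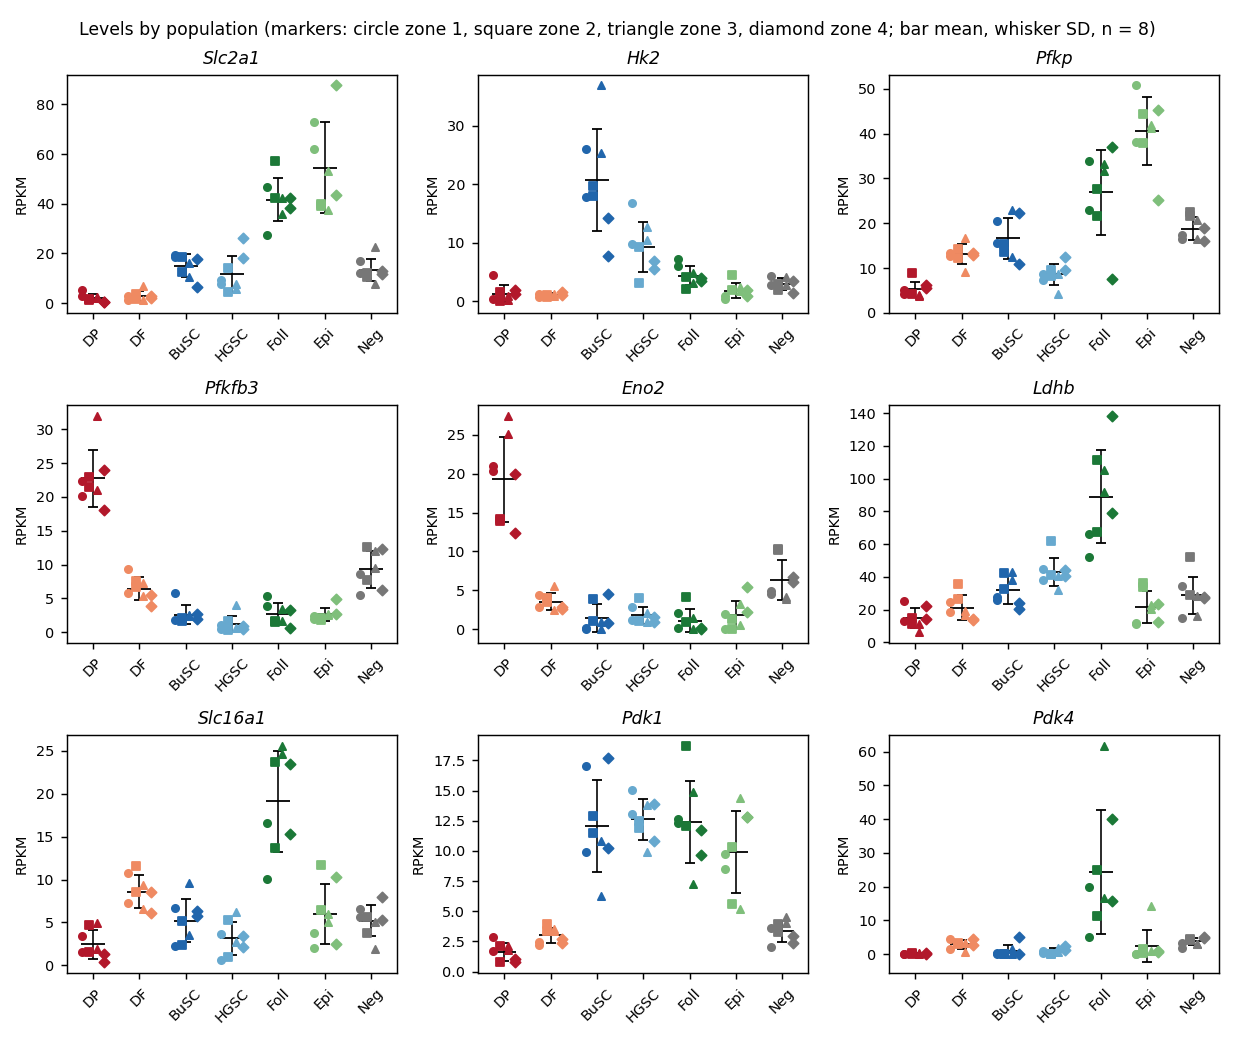
RPKM of 9 members by population, each point a library (circle, square, triangle and diamond for zones 1 to 4), with the mean as a bar and the SD as a whisker (n = 8). Slc2a1 and Pfkp are highest in Epi, Hk2 in BuSC, Pfkfb3 and Eno2 in DP, and Ldhb, Slc16a1 and Pdk4 in Foll; the Pdk1 points of the 4 keratinocyte populations all lie above 5 RPKM.

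Phosphofructokinase commits sugar to glycolysis, and its 3 subunit genes were used unequally. Pfkp, the platelet-type subunit, had a lowest, median and highest value of 25.1, 41.6 and 50.8 RPKM in Epi, 7.46, 29.7 and 37.1 in Foll, 9.05, 13.2 and 16.8 in DF and 3.87, 4.70 and 8.88 in DP. DP and DF did not overlap, and the difference was -1.20 ± 0.22 (adjusted p = 1.89e-05, limma) and -2.04 after median-of-ratios scaling. The liver-type Pfkl (mean 7.56 RPKM in DP, 2.60 in DF) and muscle-type Pfkm (13.4 and 5.94) went the opposite way, by 1.05 ± 0.31 (adjusted p = 0.00535) and 1.12 ± 0.39 (adjusted p = 0.0173). Both lost the call after scaling, at 0.36 and 0.34, and Pfkl was higher in DP in 3 of 4 zones. The Pfkm call ended without DF zone 2 replicate 1 and the Pfkl call without any one of DF zone 2 replicate 1, DF zone 3 replicate 1, DP zone 2 replicate 2, DP zone 3 replicate 2 and DP zone 4 replicate 1. The share of Pfkp, which a factor per library leaves as it is, was 20.3% ± 6.41 in DP and 61.4% ± 9.81 in DF with no overlap (exact permutation p = 0.00154; adjusted 0.0162). In the other populations the mean share was 52.5% in HGSC to 76.5% in Epi. BuSC and HGSC together were below Epi and Foll in Pfkp, with a difference of -1.36 ± 0.15 (adjusted p = 5.12e-09). Mesenchyme was below keratinocytes by a difference of -1.14 ± 0.13 (adjusted p = 2.54e-09), a call lost after scaling (-0.56). DF overlapped BuSC (10.9, 15.4 and 23.0 RPKM as lowest, median and highest) and HGSC (4.24, 8.68 and 12.6).

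The PFKFB enzymes make and break fructose 2,6-bisphosphate, the strongest activator of phosphofructokinase, and their genes took different orders across the populations. Pfkfb3, whose enzyme mostly makes the activator, had a lowest, median and highest value of 18, 21.9 and 32 RPKM in DP, 5.42, 9.09 and 12.6 in Neg and 3.84, 6.22 and 9.30 in DF. In HGSC they were 0.308, 0.772 and 4.02, and no keratinocyte library exceeded 5.78. DP lay above every other library of the series. DP exceeded DF by 1.69 ± 0.25 (adjusted p = 6.14e-07, limma), or 0.89 (adjusted p = 0.00335) after median-of-ratios scaling, under the minimum difference of 1. Mesenchyme exceeded keratinocytes by 2.12 ± 0.15 (adjusted p = 1.5e-14), the most positive difference among the members, and by 2.60 after scaling.

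Pfkfb4 was also highest in DP, followed by DF and Neg, with 4.92, 6.01 and 9.47 RPKM as lowest, median and highest in DP, 1.06, 2.32 and 3.62 in DF and a median of at most 0.832 in each keratinocyte population. Mesenchyme exceeded keratinocytes by 1.57 ± 0.19 (adjusted p = 7.9e-09, limma) and by 1.94 after median-of-ratios scaling. The difference of DP from DF, 1.17 ± 0.31 (adjusted p = 0.00209), was 0.51 after scaling and then not called, nor was it with quantile scaling or a pseudocount of 0.1. Pfkfb2, the heart-type enzyme, had its highest means in Epi and Foll and its lowest in DF. Its lowest, median and highest values were 15.2, 34.8 and 38.4 in Epi, 17.3, 22.2 and 24.6 in Foll, 6.66, 13.7 and 14.9 in BuSC, 6.18, 10.4 and 14.9 in HGSC and 3.06, 3.99 and 5.42 in DF. In DP they were 7.27, 9.75 and 13.1, which overlapped both stem cell pools. Epi and Foll lay above both stem cell pools without overlap (difference -1.18 ± 0.12, adjusted p = 1.11e-09). Mesenchyme was lower than keratinocytes, with a difference of -1.28 ± 0.11 (adjusted p = 9.1e-13), and DP exceeded DF by 1.12 ± 0.17 (adjusted p = 1.81e-06). Both calls were lost after median-of-ratios scaling, at -0.75 and 0.36. Of the Pfkfb2 transcript, 25.1% of 50-base windows also occur in a predicted gene model, so reads could be split between them.

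The middle steps follow. Gpi1, which turns glucose 6-phosphate into fructose 6-phosphate, had a mean of 11.3 RPKM in DF and 14.3 in DP against 24.4 to 33.5 in keratinocytes (-1.08 ± 0.12, adjusted p = 7.86e-10, limma; -0.50 after median-of-ratios scaling, not called; also not called without DP zone 4 replicate 2). Aldoa, the main aldolase, ran from 118 to 196 RPKM in Foll and from 30.7 to 79.3 over both stem cell pools. The stem cell pools were lower than Epi and Foll, with a difference of -1.09 ± 0.11 (adjusted p = 1.09e-09). Between DP and DF, Aldoa differed by -0.92 (adjusted p = 1.17e-05), just under the minimum, and by -1.81 after scaling, where it was called. Aldoc, the brain-type aldolase, had a mean of 3.37 RPKM in keratinocytes and 0.815 in mesenchyme (-1.24 ± 0.23, adjusted p = 1.43e-05; -1.06 after scaling), and its median in DF was 0.00933. Its highest mean share of the 2 aldolases was 6.60% ± 4.00, in BuSC (SD, n = 8).

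Tpi1, which interconverts the triose phosphates, had a mean of 13.2 RPKM in DF and 24.1 to 36.2 elsewhere. DP exceeded DF by 1.07 ± 0.24 (adjusted p = 0.000307, limma), a call that was lost after median-of-ratios scaling (0.23) and without any one of DF zone 1 replicate 2, DF zone 2 replicate 2, DP zone 1 replicate 2 and DP zone 2 replicate 1. Gapdh, Pgk1 and Pgam1, which carry the payoff steps, were called in none of the 6 population comparisons. Gapdh ran from 132 to 289 RPKM in BuSC and from 53.6 to 88.1 in DF. Between DP and DF, Gapdh differed by 0.23 (adjusted p = 0.282, limma), and by -0.65 (adjusted p = 0.00184) after median-of-ratios scaling, under the minimum. Pgk1 had a mean of 9.69 in DF to 21.5 in BuSC, and Pgam1 of 2.42 in DF to 11.2 in HGSC. With Eno1, these 3 are the members whose reads are least certain: 82.5%, 68.0% and 41.5% of their 50-base windows also lie in transcripts of other genes, 218 of them for Gapdh. In all, 13 of 34 members shared over 5% of windows, among them Pkm (34.4%), Pdhb (30.3%) and Ldhb (27.0%).

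At the enolase step the neuronal form had its highest values in DP. Eno1, the enolase of most tissues, had 53 reads in all 56 libraries and at most 0.190 RPKM. Of its windows 72.2% are shared, most often with Eno1b, which had 5766 reads and at most 3.25 RPKM, so the level of this enzyme cannot be read from the table. Eno2, the neuronal form, had a lowest, median and highest value of 12.3, 20.2 and 27.5 RPKM in DP, 3.85, 5.51 and 10.3 in Neg and 2.53, 3.19 and 5.56 in DF, and at most 5.40 in any keratinocyte library. DP lay above all other libraries. It exceeded DF by 2.15 ± 0.32 (adjusted p = 8.11e-07, limma) and by 1.41 (adjusted p = 0.000358) after median-of-ratios scaling, in 4 of 4 zones. Mesenchyme exceeded keratinocytes by 2.11 ± 0.20 (adjusted p = 1.17e-11) and by 2.54 after scaling. Eno3, the muscle form, had means of 3.47 RPKM in DF to 12.0 in HGSC, where a single library, zone 3 replicate 2, stood at 42.0. Skeletal muscle markers summed to at most 20.3 RPKM in every library outside Neg, and Myl1 was at 0 in all 6 of those populations. Without Eno1 the share of Eno2 says only how Eno2 stood to Eno3: 76.3% ± 17.5 in DP and 53.7% ± 15.1 in DF (adjusted exact permutation p = 0.054).

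Pkm, pyruvate kinase, had its highest values in the stem cell pools, with 61.9, 75.7 and 113 RPKM as lowest, median and highest in BuSC and 58.4, 67.1 and 92.4 in HGSC, against 23.5, 30.9 and 33.9 in DF. Epi overlapped both pools, with 29.1, 64.9 and 89.0. The pools exceeded Epi and Foll by 0.50 ± 0.10 (adjusted p = 0.000118, limma), under the minimum of 1. Pkm was called in none of the 6 comparisons. The table has 1 value per gene, so the M1 and M2 forms cannot be separated. Of the Pkm transcript, 34.4% of 50-base windows also occur in transcripts of other genes.

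Of the lactate dehydrogenase subunits, Ldhb was higher in the upper follicle than in the epidermis. Ldhb, whose subunit favours the formation of pyruvate, had a lowest, median and highest value of 52.3, 85.6 and 138 RPKM in Foll and 11.4, 21.6 and 36.4 in Epi, with no overlap. BuSC (20.3, 30.0 and 42.6) and HGSC (31.8, 40.7 and 61.7) lay between, and DP was lowest (6.12, 13.8 and 25.5). DF (13.5, 18.7 and 35.6) overlapped Epi. Epi was lower than Foll, with a difference of -2.06 ± 0.18 (adjusted p = 2.39e-09, limma) in 4 of 4 zones (-1.92 after median-of-ratios scaling). Mesenchyme was lower than keratinocytes, with a difference of -1.16 ± 0.11 (adjusted p = 3.42e-11), a call lost after scaling (-0.57). Ldha, the subunit that favours lactate, was called in none: its medians were 118 in HGSC, 113 in Foll, 106 in BuSC, 89.7 in Epi, 80.4 in Neg, 62.5 in DP and 52.6 in DF, and the ranges of neighbours in that order overlapped. Between DP and DF, Ldha differed by 0.17 (adjusted p = 0.462, limma) on the deposited scale. After median-of-ratios scaling the sign changed, at -0.71 (adjusted p = 0.000702, limma), under the minimum difference of 1. Ldhb made up 43.5% ± 9.83 of the summed pair in Foll and 21.1% ± 12.0 in Epi (exact permutation p = 0.00309; adjusted 0.0216). Without Epi zone 2 replicate 2 the difference was -21.2 points and missed the threshold (adjusted exact p = 0.054). Elsewhere the mean share was 19.8% in DP to 28.1% in DF. Of the 50-base windows, 27.0% of Ldhb and 16.6% of Ldha also occur in transcripts of other genes, so reads could be split there. The Ldha promoter printed above held 5 matches to ACGTG, counting both strands, and the Ldhb promoter 0. Of the 2 Ldha stretches only 1 held a match. The part of these matches in the levels was not tested.

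Lactate and pyruvate cross the plasma membrane through the monocarboxylate transporters. Slc16a1, or MCT1, peaked in the same population as Ldhb: 10, 20.0 and 25.6 RPKM were its lowest, median and highest values in Foll, against 2.04, 5.53 and 11.7 in Epi. Its medians were 5.42 in BuSC and 3.07 in HGSC, and both pools overlapped Epi. DF (6.07, 8.56 and 11.5) and DP (0.332, 1.73 and 4.94) did not overlap. Epi was lower than Foll, with a difference of -1.63 ± 0.31 (adjusted p = 0.000306, limma), the stem cell pools were lower than Epi and Foll, with a difference of -1.25 ± 0.22 (adjusted p = 1.74e-05), and DP was lower than DF, with a difference of -1.60 ± 0.31 (adjusted p = 5.19e-05), or -2.41 after median-of-ratios scaling. Slc16a3, or MCT4, an exporter of highly glycolytic cells, was found mainly in mesenchyme, with medians of 2.41 RPKM in DP and 3.13 in DF and at most 0.702 in each other population (1.21 ± 0.21 for mesenchyme against keratinocytes, adjusted p = 4.27e-06; 1.59 after scaling). Its share of the pair was 53.3% ± 22.6 in DP and 26.7% ± 9.0 in DF (SD, n = 8; adjusted exact permutation p = 0.054).

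**Figure D3:**
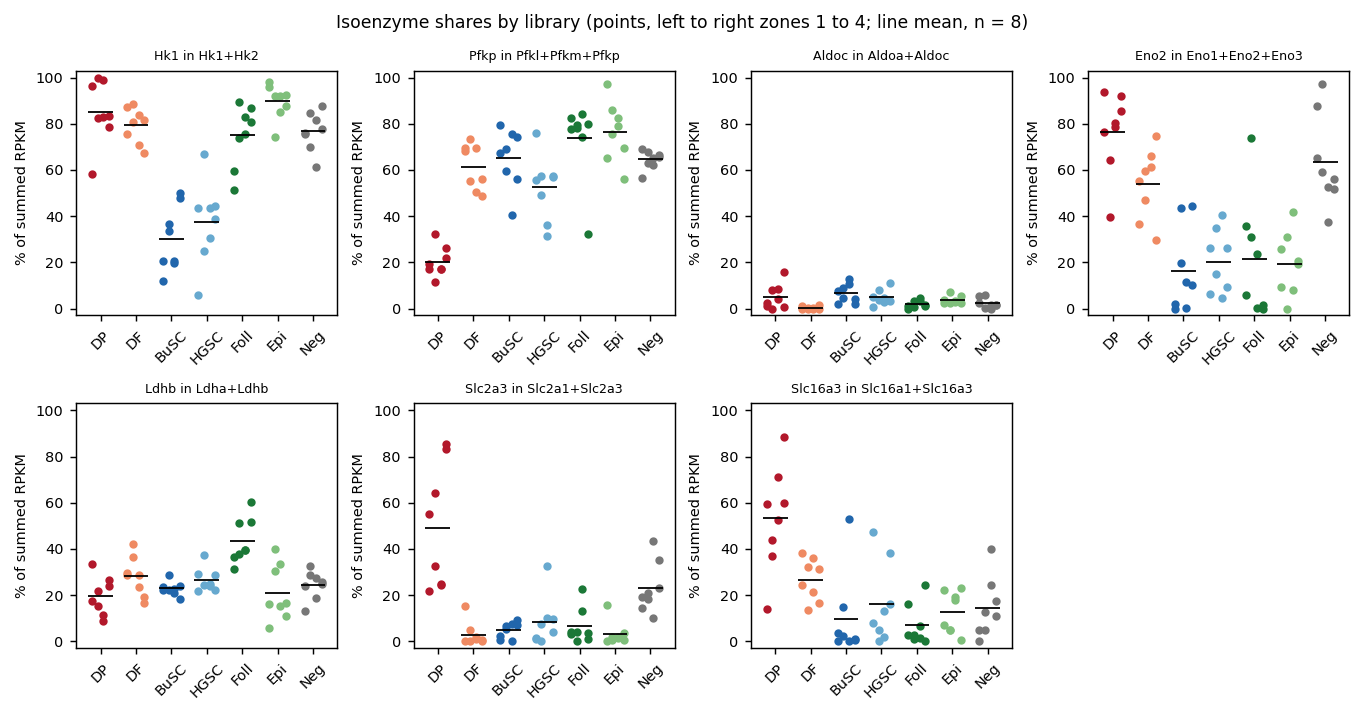
Share of 1 isoenzyme in the summed RPKM of its set, as a percentage, in each library, with the mean of 8 libraries as a line. Pfkp and Slc2a3 separate DP from DF without overlap, the Hk1 share is lowest in BuSC and HGSC, and the Ldhb share is highest in Foll.

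Pyruvate enters the mitochondrion through a carrier of MPC1 and MPC2. Mpc2 had a lowest, median and highest value of 55.9, 74.6 and 85.5 RPKM in Foll and 15.6, 34.5 and 65.4 in Epi (-1.03 ± 0.16, adjusted p = 2.31e-05, limma). The call was lost after median-of-ratios scaling (-0.89), with the count-based fit and without any one of Foll zone 2 replicate 2, Epi zone 1 replicate 2, Epi zone 3 replicate 1 and Epi zone 4 replicate 2. Mpc1 was low throughout, at 1532 reads in all and means of 0.965 RPKM in DP to 2.69 in HGSC, and was called nowhere. Pdha1 and Pdhb encode the pyruvate dehydrogenase subunits that decarboxylate pyruvate. Pdha1 was called nowhere (means of 16.7 in BuSC to 30.0 in Foll). Pdhb had a mean of 39.0 in DP and 18.8 in DF (1.01 ± 0.18, adjusted p = 2.2e-05), a call lost after scaling (0.15) and without any one of 7 libraries, namely DF zone 1 replicate 1, DF zone 2 replicate 2, DF zone 3 replicate 1, DF zone 4 replicate 1, DP zone 2 replicate 1, DP zone 3 replicate 2 and DP zone 4 replicate 1.

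The 4 pyruvate dehydrogenase kinases each had a population order of their own. Pdk4, the isoform linked to fasting and fat use, had its highest values in Foll, where the lowest, median and highest values were 5.09, 18.3 and 61.7 RPKM. In Epi they were 0.0216, 0.782 and 14.1, where zone 3 replicate 1 was the high library and the next stood at 1.48. Foll overlapped Epi through that library, and its own lowest library, zone 1 replicate 2, lay below the highest of BuSC (5.20) and of Neg (5.14). DF (0.717, 3.11 and 4.55) and DP (0, 0.116 and 0.346) did not overlap. The medians of Pdk4 were 0.0637 in BuSC and 0.83 in HGSC, and both pools overlapped Epi. Epi was lower than Foll, with a difference of -3.29 ± 0.38 (adjusted p = 1.7e-07, limma), and the stem cell pools were lower than Epi and Foll, with a difference of -1.99 ± 0.27 (adjusted p = 1.76e-07). These were the most negative differences among members in both comparisons. DP was lower than DF, with a difference of -1.72 ± 0.38 (adjusted p = 0.000243), or -2.38 after median-of-ratios scaling.

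Pdk1, a target of the hypoxia response, set keratinocytes apart from mesenchyme. Its lowest keratinocyte library, in Epi, stood at 5.20 RPKM, while DP ran from 0.760 to 2.88 and DF from 2.22 to 3.92. The difference of mesenchyme was -1.96 ± 0.12 (adjusted p = 4.3e-16, limma), in 4 of 4 zones, and -1.44 after median-of-ratios scaling. Pdk3 had a lowest, median and highest value of 6.66, 11.7 and 13.7 RPKM in DP and 1.31, 1.71 and 3.12 in DF, with no overlap (2.02 ± 0.35, adjusted p = 8.53e-06; 1.38 after scaling). Its medians in the other populations were 4.95 to 7.65. Pdk2 had medians of 27.7 in BuSC and 5.68 in Epi. Epi was lower than Foll, with a difference of -1.17 ± 0.32 (adjusted p = 0.011), but Foll zone 4 replicate 1 alone stood at 52.0 against 9.18 to 16.6 in the other 7, and without it the difference was not called. The call also ended without Epi zone 1 replicate 1 or Epi zone 4 replicate 2. Fbp2, the muscle fructose bisphosphatase of the reverse pathway, had 33 reads in 6 libraries.

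Between DP and DF the members with a call after all scalings were Slc2a3, Eno2 and Pdk3, higher in DP, and Pfkp, Slc16a1 and Pdk4, lower in DP. On the deposited scale 10 of 32 tested members were higher in DP (also Pfkl, Pfkm, Pfkfb2, Pfkfb3, Pfkfb4, Tpi1 and Pdhb) and 3 were lower. Calls required an adjusted p (Benjamini-Hochberg) under 0.05 over 16731 genes and a difference of at least 1. Of all tested genes 24.2% were higher and 6.13% lower, so the members' 31.2% and 9.38% lay near the background, and their median was 0.50 against 0.47. After median-of-ratios scaling 3 members were higher and 7 lower (Slc2a1, Pfkp, Aldoa, Ldhb, Slc16a1, Pdk1 and Pdk4), where the background was 6.36% higher and 12.5% lower, with 33.6% of calls on the higher side against 79.8% on the deposited scale. After quantile scaling 4 were higher and 6 lower, with 44.0% of all calls higher.

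Between BuSC and HGSC only Hk2 was called among the 32, higher in BuSC, where 3.82% of all genes were higher and 2.03% lower. The most negative fitted difference was that of Eno3, -0.48 (adjusted p = 0.607). Between Epi and Foll 5 members were lower in Epi (Ldhb, Slc16a1, Mpc2, Pdk2 and Pdk4) and 0 were higher, against 5.86% and 1.92% of all genes. The most positive difference was that of Pfkl, 0.90 (adjusted p = 0.0452), under the minimum of 1. Ldhb, Slc16a1 and Pdk4 were called under all scalings. Markers of fat and sebaceous cells moved with Foll: 3 of 6 had a mean of at least 1 RPKM in Foll and in Epi, and their sum was 281 to 550 RPKM there and 71.5 to 184 in Epi, with a mean of 327 against 118 for Scd1 and with Adipoq at 0 in both. Of 6 immune markers, 6 reached that mean in Foll and 4 in Epi, and their sums were 61.1 to 306 and 5.42 to 180. Epidermis markers overlapped, with sums of 815 to 4612 RPKM in Foll and 2980.5 to 4647 in Epi. The part of any of these markers in the 5 differences was not tested. All genes split into 24.7% of calls higher on the deposited scale, 42.5% after quantile and 37.8% after median-of-ratios scaling.

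**Figure D4:**
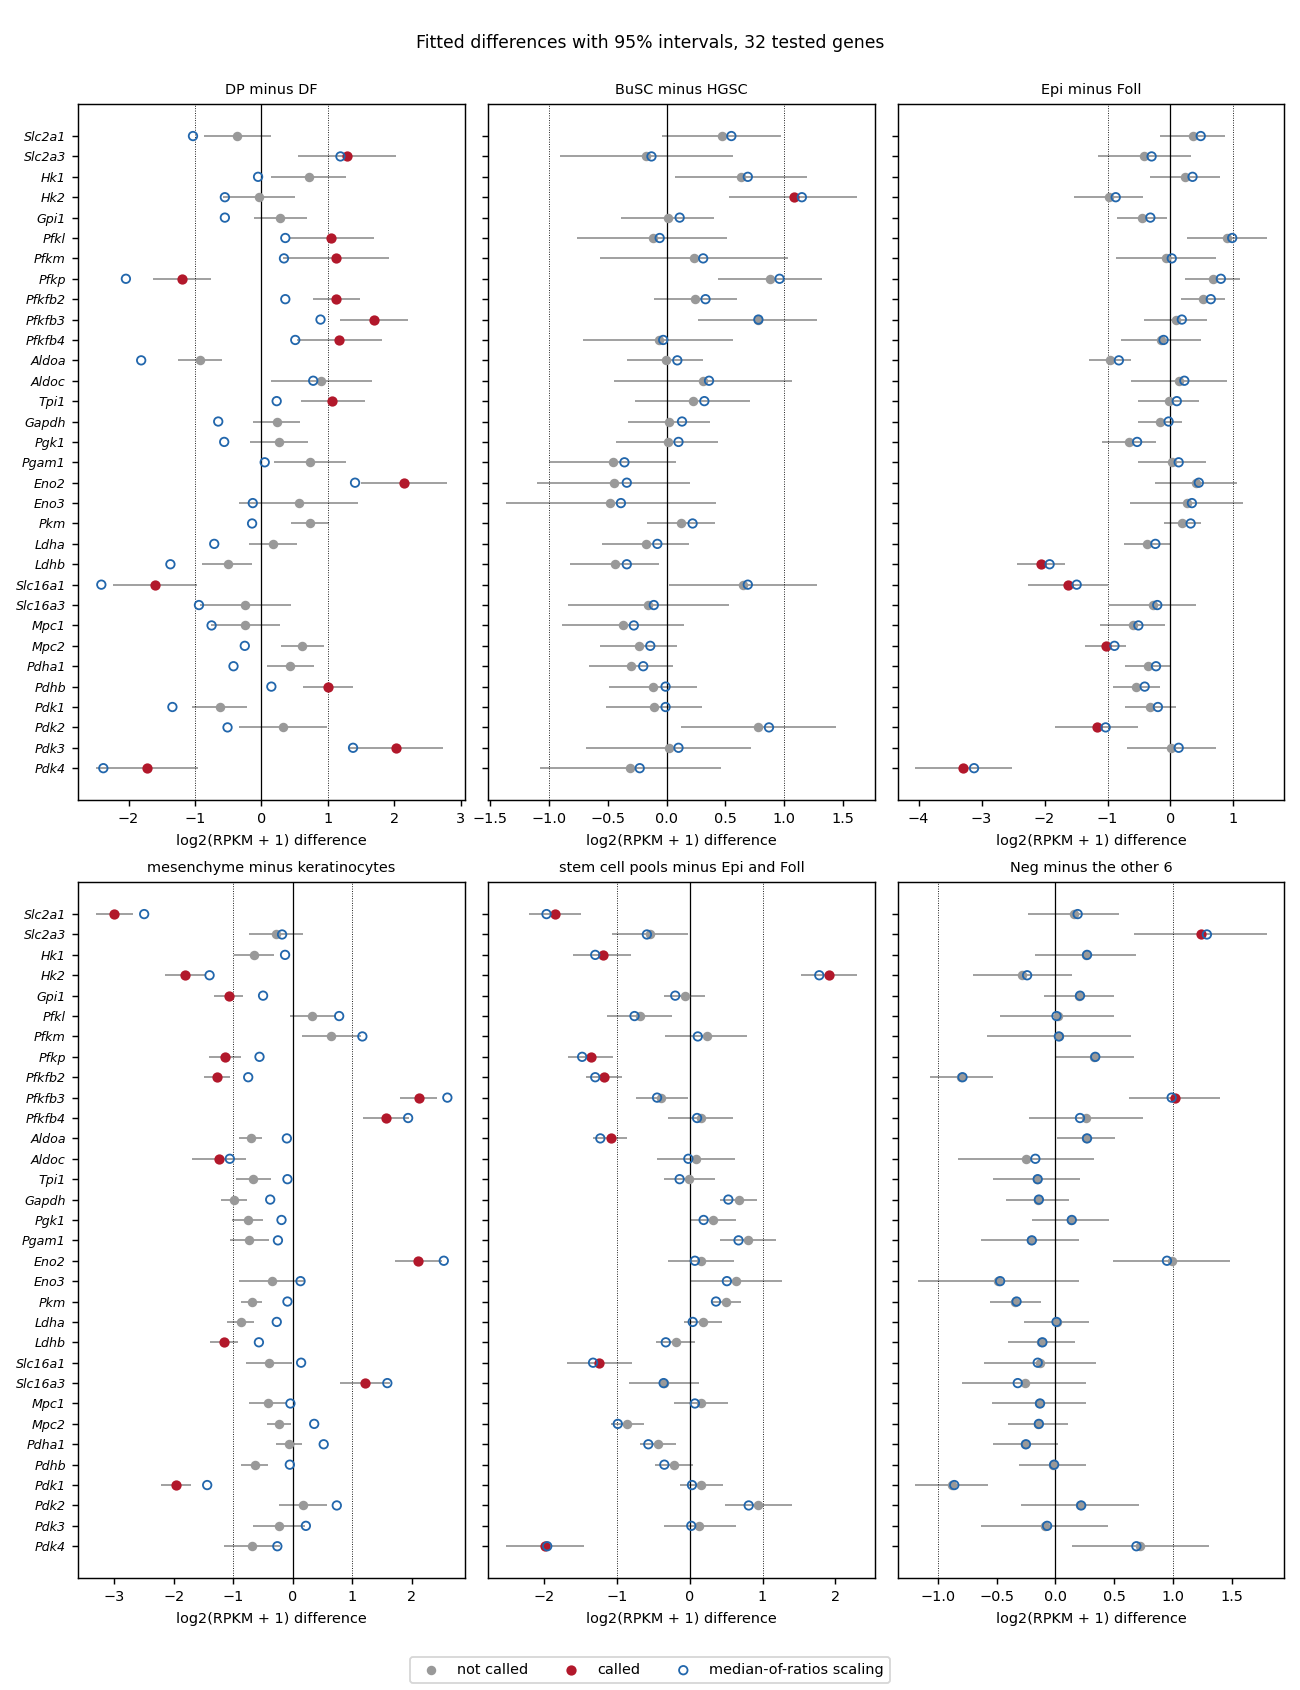
Fitted difference of each of the 32 tested members in log2(RPKM + 1) for the 6 comparisons, with its 95% interval; filled red points were called, and open blue circles are the differences after median-of-ratios scaling. The blue circles lie to the left of the points between DP and DF and mostly to the right between mesenchyme and keratinocytes, while the pools of stem cells differ little between scales.

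Mesenchyme was lower than keratinocytes in Slc2a1, Hk2, Gpi1, Pfkp, Pfkfb2, Aldoc, Ldhb and Pdk1 and higher in Pfkfb3, Pfkfb4, Eno2 and Slc16a3. These were 8 and 4 of 32 members, against 18.5% and 9.77% of all genes, and the medians were -0.66 for members and -0.27 for all. The contrasts are of pooled means and do not hold for every pair of populations. Mean Pfkp was 13.1 RPKM in DF and 8.61 in HGSC. Mean Pfkfb2 was 10.1 in DP and 10.3 in HGSC, Ldhb 21.1 in DF and 21.5 in Epi, and Hk2 1.32 in DP and 1.83 in Epi. After median-of-ratios scaling 4 were lower (Slc2a1, Hk2, Aldoc and Pdk1) and 5 higher (Pfkm joined, at 1.17), against 10.2% lower and 15.0% higher of all genes, and 59.4% of all calls were on the higher side in place of 34.5%. Quantile scaling gave 4 lower and 5 higher, against 1961 and 2189 of all 16731 genes. The stem cell pools were lower than Epi and Foll in Slc2a1, Hk1, Pfkp, Pfkfb2, Aldoa, Slc16a1 and Pdk4 and higher in Hk2. These 7 and 1 of 32 stood against 5.68% and 8.15% of all genes and were called under each scaling. In Aldoa, Slc16a1 and Pdk4 the highest values lay in Foll, and both pools overlapped Epi. Foll zone 1 replicate 2, the library nearer to HGSC, lies on the Foll side of this comparison, and all 8 calls held without it. Neg was higher than the mean of the other 6 populations in Slc2a3 (1.24 ± 0.28, adjusted p = 0.000481, limma) and Pfkfb3 (1.02 ± 0.19, adjusted p = 4.01e-05), 2 of 32 against 12.9% higher and 1.81% lower of all genes. The Pfkfb3 call ended without any one of 8 libraries (replicate 2 of each Neg zone, HGSC zone 2 replicate 1, HGSC zone 3 replicate 1, BuSC zone 1 replicate 1 and Foll zone 4 replicate 1). Neither was called after quantile scaling, where Pfkfb2 and Pdk1 were lower and 65.1% of all calls were higher in place of 87.7%. Pdk1 was at the other end, at -0.88 (adjusted p = 1.5e-05). All 6 immune markers reached a mean of 1 RPKM in Neg, their sum was 1133 to 1627 RPKM there and at most 306 elsewhere. Endothelial markers, 3 of 3 at that mean, summed to 102 to 167 in Neg and at most 20.3 elsewhere, and melanocyte markers, also 3 of 3, to 237 to 418 and at most 159. Fibroblast markers summed to 7005 to 14571 in Neg. The part of these markers in the Slc2a3 and Pfkfb3 differences was not tested.

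Zones within a population were compared by an F test over 4 zones of 2 libraries. No member was called in any of the 7 populations or for zone by population at an adjusted p under 0.05 (limma). At an unadjusted p under 0.05 (limma) there were 6 members in Epi, 3 each in DP and HGSC, 2 each in BuSC and Foll, 1 in DF and 0 in Neg, and 1 (Ldhb, adjusted p = 0.477, limma) for zone by population. Of all genes 0.43% were called in DP, 0.197% in DF, 0.359% in BuSC, 0.137% in HGSC, 1.03% in Foll, 1.79% in Epi, 1.01% in Neg and 0.317% for zone by population. The count-based fit called 2 members, Hk2 (adjusted p = 0.0338) and Eno2 (0.0461) in BuSC. Hk2 had a mean of 22 RPKM in zone 1, 18.8 in zone 2, 31.1 in zone 3 and 11.0 in zone 4 of BuSC, the zone with the highest fibroblast markers. The smallest adjusted p of the main test was 0.0759, for Ldhb in Epi, with both libraries at 11.4 and 11.6 RPKM in zone 1, 33.8 and 36.4 in zone 2, 20.2 and 23.0 in zone 3 and 12.6 and 23.2 in zone 4. Leaving out Epi zone 3 replicate 2 gave 3 members called in Epi (Ldhb, Pdk4 and Pkm), leaving out any of 5 other Epi libraries gave 1, and leaving out Foll zone 4 replicate 2 gave 1 in Foll (Pfkp).

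A second list held 50 other genes of sugar uptake, glycolysis and pyruvate use, of which 39 were tested. Between DP and DF 8 of these were higher and 2 lower, or 20.5% and 5.13%, near the 24.2% and 6.13% of all genes. After median-of-ratios scaling 1 was higher, Slc2a6 (1.76, scaled 1.39), and 6 were lower, among them Slc2a4, the insulin-responsive transporter GLUT4 (-1.70, scaled -2.39). All genes then stood at 6.36% higher and 12.5% lower. In mesenchyme against keratinocytes 2 were higher, led by Slc2a10 (3.71, scaled 4.13), and 4 lower, led by the malic enzyme Me1 (-2.98, scaled -2.53). These were 5.13% and 10.3%, below the 9.77% and 18.5% of all genes. They turned to 4 higher and 2 lower after scaling, against 15.0% and 10.2% of all genes. BuSC exceeded HGSC in 2, Pgm1 (1.43) and Slc2a10 (1.05), and was lower in 0, against 3.82% and 2.03% of all genes. Epi exceeded Foll in 1, Slc2a12 (1.29), and was lower in 2, Gpd1 and Slc16a7 (both -1.38), against 1.92% and 5.86%. In the stem cell pools 3 were higher than in Epi and Foll, led by Galm (2.15), and 4 lower, led by Slc2a12 (-3.34), with means of 0.914 and 18.2 RPKM, which were 7.69% and 10.3% against 8.15% and 5.68%. Neg was higher in 0 and lower in 1, Slc2a12 (-1.02), against 12.9% and 1.81%.

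Neighbouring pathways were counted in the same way. For counts after median-of-ratios scaling, all genes stood at 6.36% higher and 12.5% lower between DP and DF. In mesenchyme they stood at 15.0% and 10.2%, and in Epi against Foll 442 of 16731 were higher and 728 lower. Of 20 citric acid cycle genes, 5 were lower (25.0%, against 18.5% of all genes) and 0 higher in mesenchyme than in keratinocytes, led by the citrate synthase Cs (-1.52, scaled -0.92). After median-of-ratios scaling 0 were lower and 1 was higher. In Epi 3 of the 20 were lower than in Foll (15.0%, against 5.86%), led by Idh1 (-1.49), and 2 after scaling. Between DP and DF 1 was higher and 1 lower (5.0% each, against 24.2% and 6.13%), or 0 and 2 after scaling. In the stem cell pools 1 was lower than in Epi and Foll (5.0%, against 5.68%). Of 12 pentose phosphate genes, 3 were higher in DP than in DF (25.0%, against 24.2%), led by Rpia (1.90, scaled 1.24), which alone was called after scaling. In Epi 3 were lower than in Foll (25.0%, against 5.86%), and 1 after scaling. In mesenchyme 3 were lower and 1 higher on both scales (25.0% and 8.33%), led by Prps2 (-2.30, scaled -1.78). All genes stood at 18.5% and 9.77% on the deposited scale and at 10.2% and 15.0% after scaling. In Neg 1 was higher (8.33%, against 12.9%). Of 15 tested glycogen genes, 1 was higher in DP than in DF, the phosphorylase Pygl (2.26, scaled 1.53), and 2 were lower, or 3 after scaling. These were 6.67% and 13.3% on the deposited scale, against 24.2% and 6.13% of all genes. In mesenchyme 2 were higher (13.3%, against 9.77%), or 4 after scaling. BuSC exceeded HGSC in 2 (13.3%, against 3.82%). Epi was lower than Foll in 1 (6.67%, against 5.86%), and Neg was higher in 2 (13.3%, against 12.9%).

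Of 21 hypoxia response genes outside glycolysis, 4 were higher in DP than in DF, led by Bhlhe40 (2.07, scaled 1.20) and Hif1a (2.06, scaled 1.20), and 4 were lower, led by Adm (-2.21, scaled -3.03). These 19.0% in each direction stood against 24.2% and 6.13% of all genes. After median-of-ratios scaling 2 were higher and 7 lower, where all genes stood at 6.36% and 12.5%. In mesenchyme 4 were higher than in keratinocytes, led by P4ha2 (3.70, scaled 4.23), and 3 lower, led by Car12 (-5.38, scaled -5.08), or 7 and 1 after scaling. The 4 and 3 were 19.0% and 14.3%, against 9.77% and 18.5% of all genes. After scaling all genes stood at 15.0% and 10.2%. BuSC exceeded HGSC in 3 (14.3%, against 3.82%) and was lower in 2 (9.52%, against 2.03%). Epi exceeded Foll in 1 (4.76%, against 1.92%). In the stem cell pools 3 were lower (14.3%, against 5.68%) and 0 higher (against 8.15%). In Neg 5 were higher (23.8%, against 12.9%), led by Epas1 (3.98), and 1 lower (4.76%, against 1.81%), or 5 and 0 after scaling. Of all 16731 genes 2129 were then higher in Neg and 254 lower. Endothelial markers summed to 102 to 167 RPKM in Neg and at most 20.3 elsewhere, and their part in the Epas1 difference was not tested. The list also holds genes of the hypoxia-inducible factors themselves (Hif1a and Epas1). Ppp1r3c is counted both here and among the glycogen genes.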

How the data were processed

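The 1 deposited table holds RPKM per gene in 56 libraries, reads scaled by the authors to gene length and library total. Per the labels' protocols, RNA with an integrity number of at least 8.8 was amplified from 6 ng and 100 ng of cDNA entered each library. The submitters' processing notes name mm10, STAR 2.4.0, featureCounts, limma, edgeR and DESeq2. Read length, strand and the counting of reads that match several genes have no statement in the sources used here. Values were whole multiples of 1 read for 22210 of 22233 genes above 0 in all 56 libraries (99.9%, within 0.02 reads), which gave read counts for depth and for a count-based fit (voom).

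Tests used limma 3.58.1 in R 4.3.3 on log2(RPKM + 1), which understates the change of low genes, over 16731 genes with at least 1 RPKM in at least 2 libraries, with a mean for each of 28 groups (28 residual degrees of freedom) and a trended variance. Differences and shares were tested two-sided and zones by F tests; the tests of differences and shares were tested on simulated data. Populations are means of 4 zones. Shares were compared by permutation within zones (scipy 1.17.1, Python 3.11.15). Shared 50-base windows were counted in GENCODE M21 transcripts. All called members and those at the ends of each comparison are named with their difference, and other genes up to 4 per list in each comparison. The members and lists were chosen with earlier results of these data known.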

Additional observations from a re-analysis of the deposited data

Results flagged for a closer look

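The highest or lowest of 8 libraries stood apart from the other 7 of its population (Dixon's test at 95% on log2(RPKM + 1)) in 17 of 224 combinations of member and population. Chance flags about 1 in 20 groups.

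High libraries were the following. Pfkm was 29.4 RPKM in BuSC zone 3 replicate 2, against 2.4 to 8.0 in the others, and Slc16a3 was 3.98 there, against 0 to 0.421. Pdk4 was 14.1 in Epi zone 3 replicate 1, against 0.0216 to 1.48. Pdk2 was 52.0 in Foll zone 4 replicate 1, against 9.18 to 16.6. Pgam1 was 25.4 in HGSC zone 1 replicate 2, against 5.27 to 11.4. Pfkfb4 was 4.89 in Epi zone 4 replicate 2, against 0 to 0.641. Pfkfb3 was 5.78 in BuSC zone 1 replicate 2, against 1.63 to 2.72, and 4.86 in Epi zone 4 replicate 1, against 1.83 to 2.71. Pdk3 was 15.1 in Neg zone 3 replicate 1, against 2.74 to 6.42. Slc2a3 was 0.525 in DF zone 1 replicate 1, against 0 to 0.176.

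Low libraries were Pfkp at 7.46 in Foll zone 4 replicate 1, against 21.6 to 37.1, and at 25.1 in Epi zone 4 replicate 1, against 37.9 to 50.8. Pfkfb2 was 15.2 in Epi zone 3 replicate 1, against 30.1 to 38.4. Gpi1 was 14.2 in BuSC zone 4 replicate 1, against 24.6 to 38.7. Mpc2 was 17.5 in DF zone 3 replicate 2, against 24.4 to 29.3. Pdha1 was 10.3 in Neg zone 4 replicate 2, against 16.3 to 24.3. Pdk3 was 1.79 in HGSC zone 3 replicate 2, against 5.52 to 10.2. Foll zone 4 replicate 1 was thus high in Pdk2 and low in Pfkp, and Epi zone 3 replicate 1 was high in Pdk4 and low in Pfkfb2. Foll zone 4 replicate 1 also had the highest fat and sebaceous marker sum of its population, 550 RPKM, and Epi zone 3 replicate 1 the highest immune sum, 180 RPKM; their part in these values was not tested.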

How the results depend on the processing

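Of the 41 calls on members, 41 were kept without a filter on low values, 41 with the replicate block, 41 without Foll zone 1 replicate 2 and BuSC zone 4 replicate 1, 40 with the count-based fit, 39 with a pseudocount of 0.1, 28 after median-of-ratios and 27 after quantile scaling; of the 39 that a fit of the compared populations alone could test, 38 were kept. None changed sign under these. Whichever single library was left out, 32 of the 41 were kept. The cause of each change was not tested. Members higher in DP than in DF were 4 after quantile scaling, 3 after median-of-ratios scaling and 16 without a minimum difference. Those lower were 6, 7 and 6. Of all 16731 genes 1363, 1064 and 6765 were higher and 1737, 2098 and 1580 lower. Counts of all genes with a pseudocount of 0.1 and without the doubtful libraries are not given here. In BuSC against HGSC, 2 were higher with the count-based fit (Hk2 and Pfkfb3), 3 without a minimum and 2 without the doubtful libraries (Hk2 and Pfkp). Among all genes 953 were higher with the count-based fit and 1015 without a minimum. In Epi against Foll, 3 were higher without a minimum, and 3 lower after quantile scaling and 9 without a minimum. The counts of all genes were 781, 574 and 1936 in the same order. In mesenchyme, 4 were lower after either scaling and 20 without a minimum. Of all 16731 genes 1961 were lower after quantile scaling, 1714 after median-of-ratios scaling and 7311 without a minimum. In the stem cell pools, 2 were higher with a pseudocount of 0.1, 2 with the count-based fit and 5 without a minimum. Among all genes 2760 were higher with the count-based fit and 4142 without a minimum. In Neg, members higher were 4 with a pseudocount of 0.1, 0 after quantile scaling, 1 after median-of-ratios scaling and 4 with the count-based fit. Lower were 2 after quantile scaling, 1 with the count-based fit and 3 without a minimum. All genes higher were 1650 after quantile scaling, 2129 after median-of-ratios scaling and 3616 with the count-based fit. All genes lower were 886, 435 and 1613 in the order given for members. The count-based fit called 2 members by zone in BuSC.

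Leaving out 1 library at a time gave 0 to 2 members higher in BuSC than in HGSC (0 without HGSC zone 1 replicate 1, HGSC zone 2 replicate 1 or BuSC zone 4 replicate 2), 0 to 1 higher in Epi than in Foll (Pfkl, without Foll zone 4 replicate 2, Epi zone 1 replicate 1 or Epi zone 2 replicate 1), 1 to 2 higher in the stem cell pools (Pdk2 joined without Foll zone 4 replicate 1, Epi zone 1 replicate 2, Epi zone 3 replicate 1 or Epi zone 4 replicate 1) and 1 to 3 higher in Neg (1, as Pfkfb3 dropped out, without Neg zone 2 replicate 2, Neg zone 3 replicate 2, HGSC zone 2 replicate 1, HGSC zone 3 replicate 1, BuSC zone 1 replicate 1 or Foll zone 4 replicate 1). By zone it gave 0 to 1 called in Foll (Pfkp, without zone 4 replicate 2) and 0 to 3 in Epi (Ldhb, Pdk4 and Pkm without zone 3 replicate 2; 1 without zone 1 replicate 1, zone 1 replicate 2, zone 2 replicate 2, zone 4 replicate 1 or zone 4 replicate 2). The difference of Eno3 between BuSC and HGSC ran from -1.0 to 0.05, with the sign changed without HGSC zone 3 replicate 2.

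Same-numbered libraries of the compared populations correlated at 0.001 to 0.085 within zones, so the numbers were not taken as pairs. Whether a number recurs across the zones of 1 population was not tested, and the fits take these libraries as independent. In every zone the epidermis sum of Foll was higher in replicate 2 (zone 2: 815 and 3577 RPKM). The immune sum of HGSC was higher in replicate 1 (zone 1: 126 and 39.2). In Epi neither sum kept 1 order. The replicate block was 1 term shared by all populations. With the replicate block the counts of members called stayed at 10 and 3 between DP and DF and the same in every other comparison. Among shares with the replicate block (signs over pairs), differences that then passed were Aldoc (4.65 points) and Slc16a3 (26.6) in DP against DF, Pfkp in BuSC against HGSC (12.8) and Hk1 in Epi against Foll (14.8), all at an adjusted exact permutation p of 0.0469. Without the zone stratum Aldoc (4.65), Slc16a3 (26.6) and Hk1 (14.8) passed. Without the 2 doubtful libraries Aldoc (4.65), Eno2 (22.6) and Slc16a3 (26.6) in DP against DF and Pfkp in BuSC against HGSC (15.0) passed, the first 3 only through the adjustment. Over single libraries left out, the share differences in points were 2.75 to 6.54 (Aldoc), 17.0 to 28.2 (Eno2) and 20.9 to 32.3 (Slc16a3) in DP against DF, 8.36 to 17.2 (Pfkp) and -8.45 to 0.539 (Eno2) in BuSC against HGSC, and 12.6 to 17.0 (Hk1), -3.10 to 8.78 (Pfkp), -7.48 to 3.23 (Eno2) and -24.6 to -20.1 (Ldhb) in Epi against Foll. The Ldhb share missed the threshold without Epi zone 2 replicate 2. Depth limits Mpc1, with a median of 17.0 reads per library, Slc16a3 (25.5) and Aldoc (35).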
